A study of Mus musculus with 80 samples.

Results

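The 45 genes described here encode proteins that copy the DNA of a cell and then separate the copies into a pair of daughter cells. They are 45 of the 39179 genes in the deposited tables and fall into 3 classes, namely 11 genes of DNA replication, 4 transcription factors of the cell cycle and 30 genes of mitosis. The genes were chosen by name, from what is known of the cell cycle, with the levels and fold changes of these libraries in all 8 groups already seen. Their levels are therefore a description, and each count of changed genes is set beside the share of all genes that changed. All 45 passed the filter on low counts, which asked for 2 counts or more in at least 10 libraries and left 19702 genes.

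RNA had been sequenced from 2 leg muscles, quadriceps and tibialis anterior (TA), of 40 female C57BL6xCBA mice at 12 weeks of age, 10 mice in each of 4 groups. WT (labelled Wild Type) and R6/2 (labelled R6/2 CAG200) mice had received vehicle or ACVR2B/Fc (labelled ActRIIB decoy), by weekly subcutaneous injection with the last dose a week before the tissue was taken. R6/2 mice model Huntington's disease. Their transgene encodes the first part of human huntingtin, driven by the human huntingtin promoter and with an expanded CAG repeat (200 in the label), so it is not restricted to muscle. ACVR2B/Fc is a soluble decoy of the receptor ACVR2B that captures myostatin, activins and related ligands. The quadriceps library of mouse 93 (WT vehicle) was left out here, which left 79 libraries, with 9 in WT vehicle quadriceps and 10 in every other group. The study left out the same library, as a strong outlier in a principal component analysis.

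In a dividing cell the E2F factors switch on replication genes as the cell leaves G1, and FOXM1, together with the MuvB complex, controls mitosis genes in G2. Adult muscle fibres have left the cell cycle. Division in muscle comes from satellite cells, the stem cells of the fibre, and from the endothelial, fibro-adipogenic and immune cells between the fibres. Transcripts of mitosis genes are made for a short part of each cycle, whereas several replication proteins also serve DNA repair and nucleotide supply in cells that do not divide.

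The 3 classes also differ in the letters of their promoters, which are shown here because the text below compares replication with mitosis genes. RefSeq (GRCm38.p6) gave a window from 250 bases before to 50 bases after the transcription start for 37 of the 45 genes, and both strands were searched. The cell cycle homology region (CHR, letters TTTGAA), the element read by MuvB, was found in 76.0% of 25 mitosis windows and in 11.1% of 9 replication windows, against 18.1% of the windows of 27025 genes. An E2F site (TTTCCCGC, TTTGGCGC, TTTCGCGC or TTTGCCGC) was found in 4.0% of the mitosis windows and 44.4% of the replication windows, against 2.32% of all. The CCAAT box, bound by NF-Y, was found in 84.0% and 88.9%, against 37.9% of all. The letters of the CHR and the CCAAT box occurred together in 72.0% of the mitosis windows and in 7.12% of all. A match of letters is not evidence that a factor binds there.

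Below are stretches upstream of the RefSeq start of 4 mitosis genes and 2 replication genes, read 5′ to 3′ on the strand of the gene, with the letters of the CHR, the CCAAT box and the E2F site on either strand in capitals. They lie at chr10:69352913-69353047 (minus strand, Cdk1), chr11:99024190-99024294 (minus, Top2a), chr19:37376322-37376381 (plus, Kif11), chr2:164769834-164769928 (plus, Ube2c), chr8:75109349-75109508 (plus, Mcm5) and chr1:128359706-128359820 (minus, Mcm6). GENCODE, used below for exons, starts Ube2c and Cdk1 further upstream, so the last 31 bases of the Ube2c stretch, with its CHR, and the last 26 of the Cdk1 stretch, with the nearer of its CHR matches, lie inside the gene as GENCODE has it.
Cdk1: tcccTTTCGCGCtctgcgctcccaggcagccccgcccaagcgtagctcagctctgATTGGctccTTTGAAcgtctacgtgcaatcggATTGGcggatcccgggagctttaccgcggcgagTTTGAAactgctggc
Top2a: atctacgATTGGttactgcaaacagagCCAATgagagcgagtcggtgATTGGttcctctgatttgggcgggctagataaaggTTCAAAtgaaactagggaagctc
Kif11: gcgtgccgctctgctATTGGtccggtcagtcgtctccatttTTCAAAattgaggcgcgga
Ube2c: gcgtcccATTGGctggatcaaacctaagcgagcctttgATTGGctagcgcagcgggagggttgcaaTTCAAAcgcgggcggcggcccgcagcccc
Mcm5: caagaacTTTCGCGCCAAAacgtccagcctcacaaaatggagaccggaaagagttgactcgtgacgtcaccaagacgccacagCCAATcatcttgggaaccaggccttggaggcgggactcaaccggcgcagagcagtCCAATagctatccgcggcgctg
Mcm6: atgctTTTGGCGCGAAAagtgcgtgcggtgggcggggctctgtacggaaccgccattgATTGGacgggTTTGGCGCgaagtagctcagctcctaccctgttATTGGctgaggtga
Read on the other strand the CHR is TTCAAA and the CCAAT box ATTGG, so Top2a, Kif11 and Ube2c each hold a CCAAT box some way upstream of a CHR, as Cdk1 does. Ube2c, whose count was lower in R6/2 muscle but overlaps another gene, holds the same arrangement as Top2a and Kif11, whose counts were higher. The Mcm5 and Mcm6 stretches hold E2F letters that overlap on both strands, as well as CCAAT boxes, and no CHR. Cdk1 was the 1 mitosis gene with E2F letters in its window. In the window of Aurka, the other gene with lower counts, the letters of the CHR lie after the transcription start and those of the CCAAT box before it. The windows of Bub1b, Cenpf, Hmmr, Kif23, Kif4, Plk1, Racgap1 and Ttk, whose counts were higher in R6/2 vehicle quadriceps, have the same layout.

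Totals ran from 36.8 to 50.3 M estimated counts per library, with a median of 42.4 M. Levels are given below in CPM, the count scaled to the size of the library, with TMM factors set within each muscle, and differences as log2 fold changes with their standard error (SE). Genes count as higher or lower where the p adjusted over all genes tested (Benjamini-Hochberg) was under 0.05, and are then said to be called. Genes of the fibre (Acta1, Ckm, Ttn and others) summed to 43910 CPM or more in every quadriceps library and 35230 CPM or more in every TA library, as a muscle label requires. Liver, pituitary or hair follicle transcripts reached 10 CPM and also exceeded 10 times the muscle's median in 15 libraries (6 quadriceps, 9 TA). Marrow granulocyte transcripts exceeded 10 times the muscle's median in 2 R6/2 vehicle quadriceps libraries, at 8.12 CPM or less. In a bulk sample, more dividing cells and more RNA per dividing cell cannot be told apart.

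Per unit of gene length these are rare transcripts. In WT vehicle quadriceps the median FPKM was under 1 for 26 of the 30 mitosis genes, for 5 of the 11 replication genes and for all 4 factors. Pcna, the sliding clamp of the replication fork, had the highest median of the 45 genes at 14.3 FPKM, followed by Rrm1, the large subunit of ribonucleotide reductase, at 10.4 FPKM. The mitosis genes were led by Ube2c, the ubiquitin-conjugating enzyme of the anaphase-promoting complex, at 5.39 FPKM and Aurka, the centrosomal Aurora kinase, at 4.72 FPKM. The median FPKM of the proliferation marker Mki67 was 0.114 and that of Cdk1, the kinase that starts mitosis, 0.225. Aurka and Ube2c thus had a higher median FPKM than the other mitosis genes, and they are the 2 genes that went the other way below. For Ube2c the level is uncertain, since its exons overlap those of Tnnc2, a gene of the fibre.

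R6/2 quadriceps held more transcripts of cell division than WT quadriceps. Of the 45 genes 39 were higher and 2 lower in R6/2 vehicle than in WT vehicle mice, where 22.5% of all genes tested were higher and 18.6% lower. With the lane of sequencing and the part of the series as covariates, which the groups do not share evenly, 20 were higher and 2 lower. The median log2 fold change was 1.56 over the 45 genes and 0.06 over all genes. Mitosis genes moved most (26 of 30 higher, 2 lower, median 1.74), the factors next (4 of 4 higher, median 1.31), and replication genes least (9 of 11 higher, median 0.56).

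**Figure D1:**
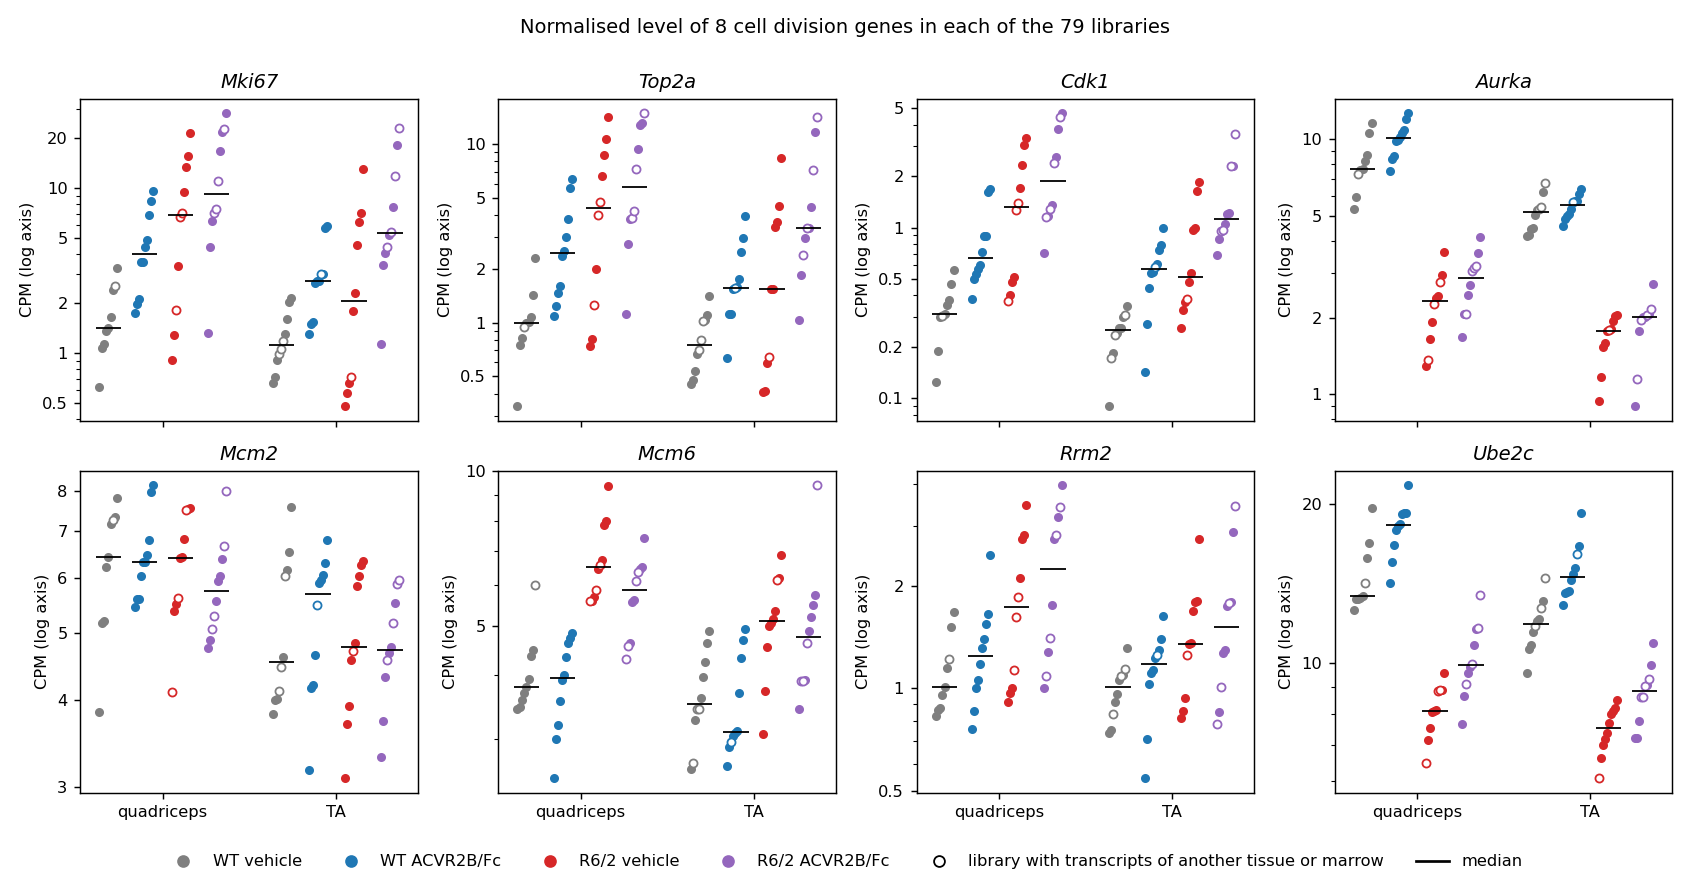
Level of 8 cell division genes in each of the 79 libraries, as TMM-scaled CPM on a log axis, by muscle, genotype and treatment. Each point is 1 library, open points are libraries with transcripts of another tissue or of marrow, and bars are medians; Mki67, Top2a and Cdk1 spread widely in R6/2 mice, Mcm2 lies at like levels in all groups, and every R6/2 point of Aurka and Ube2c lies below every WT point of the same muscle and treatment.

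Among the mitosis genes Mki67, which coats chromosomes in mitosis, lay at 0.621, 1.42 and 3.27 CPM (lowest, median and highest) in WT vehicle quadriceps and at 0.910, 6.88 and 21.5 CPM in R6/2 vehicle quadriceps. The groups overlapped, since some R6/2 mice lay within the WT range while others lay several fold above it. The log2 fold change was 2.24 (SE 0.514, edgeR adjusted p = 0.000458). Top2a, the topoisomerase that untangles sister chromatids, ran from 0.341 over 0.992 to 2.31 CPM in WT and from 0.742 over 4.36 to 14.1 CPM in R6/2 mice (2.32, SE 0.507, adjusted p = 0.000250).

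Cdk1 lay at 0.124, 0.312 and 0.561 CPM in WT vehicle quadriceps and at 0.372, 1.32 and 3.33 CPM in R6/2 vehicle quadriceps, a log2 fold change of 2.15 (SE 0.430, edgeR adjusted p = 7.61e-05). Ccnb1, the B-type cyclin that activates it, ran from 0.0621 over 0.149 to 0.530 CPM and from 0.202 over 0.909 to 1.92 CPM (2.20, SE 0.469, adjusted p = 0.000188). Ckap2, a spindle protein, ran from 0.0931 over 0.366 to 0.624 CPM and from 0.303 over 1.28 to 3.74 CPM (2.08, SE 0.462, adjusted p = 0.000300). In all 3 genes the R6/2 median lay above the highest WT library, although the lowest R6/2 libraries lay among the WT ones.

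Birc5 (survivin), a subunit of the chromosomal passenger complex, separated the groups fully, at 0.0621, 0.239 and 0.366 CPM in WT and 0.509, 1.10 and 2.21 CPM in R6/2 vehicle quadriceps (log2 fold change 2.39, SE 0.306, edgeR adjusted p = 3.05e-08). Every R6/2 vehicle library lay above every WT vehicle library for 6 of the 45 genes in quadriceps, where this held for 5.01% of all genes. The 6 were the mitosis genes Birc5, Kif20a and Racgap1, the replication genes Mcm4 and Mcm5, and Foxm1. Kif20a is a kinesin and Racgap1 a GTPase-activating protein of the central spindle, and both act in cytokinesis.

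By role, all 4 of the cyclins and Cdk1 (Cdk1, Ccna2, Ccnb1, Ccnb2) were higher, as were both chromosome proteins (Top2a, Mki67), all 3 kinetochore and passenger proteins (Cenpe, Cenpf, Birc5) and both kinases of the spindle checkpoint (Bub1, Bub1b). Of the 6 other mitotic kinases Aurkb, Plk1, Ttk, Melk and Pbk were higher and Aurka lower. Of the 9 kinesins and spindle proteins 8 were higher. Nusap1, which bundles microtubules, was not called (0.39, SE 0.258, edgeR adjusted p = 0.236), nor was Anln, the actin-binding anillin of the cleavage furrow (0.36, SE 0.170, adjusted p = 0.0851).

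The remaining mitosis genes that rose in vehicle quadriceps had log2 fold changes between 0.37 (Tpx2) and 2.50 (Bub1, a kinase that holds anaphase back until chromosomes are attached). Cenpe and Cenpf, which tie chromosomes to microtubules, were at 1.87 and 2.28, and the motors Kif11, which pushes spindle poles apart, and Kif23, which builds the midzone, at 1.79 and 1.69. Aurkb, the Aurora kinase of the passenger complex, was at 2.25, in contrast to its relative Aurka. Cdc20, which switches on the anaphase-promoting complex, lay at 0.0310, 0.187 and 0.305 CPM in WT and 0.101, 0.496 and 1.83 CPM in R6/2 mice (1.90), in contrast to Ube2c, which serves the same complex.

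The median of the replication genes was lower than that of the mitosis genes, although Esco2 at 2.65 exceeded every mitosis gene. Mcm5, a subunit of the MCM helicase that opens DNA at origins, lay at 0.553, 0.779 and 1.10 CPM in WT and at 1.85, 2.25 and 3.35 CPM in R6/2 vehicle quadriceps (log2 fold change 1.64, SE 0.172, edgeR adjusted p = 3.48e-10). Mcm6 lay at 3.44, 3.79 and 6.01 CPM in WT and at 5.58, 6.50 and 9.37 CPM in R6/2 (0.73, SE 0.124, adjusted p = 6.81e-06). Mcm2, a subunit of the same ring, lay at 3.84, 6.43 and 7.82 CPM in WT and at 4.12, 6.41 and 7.57 CPM in R6/2 (0.00, SE 0.117, adjusted p = 0.982). The subunits of 1 hexamer thus did not change in proportion at the RNA level, with Mcm4 at 0.24 and Mcm7 at 0.21 between those values. Mcm3 lay at 2.69, 3.18 and 3.75 CPM in WT and at 3.13, 4.72 and 6.02 CPM in R6/2 mice, with overlap at the lowest R6/2 libraries (0.56, SE 0.0942, adjusted p = 6.19e-06).

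Pcna lay at 20.4, 25.8 and 29.9 CPM in WT and 25.7, 29.9 and 34.01 CPM in R6/2 vehicle quadriceps, a small difference (log2 fold change 0.23, SE 0.0716, edgeR adjusted p = 0.00957). Rrm2, the subunit of ribonucleotide reductase that is made in S phase, lay at 0.829, 1.01 and 1.68 CPM and at 0.913, 1.74 and 3.48 CPM (0.74, SE 0.274, adjusted p = 0.0279). Its partner Rrm1 was not called (0.11, SE 0.0591, adjusted p = 0.140). Esco2, the acetyltransferase that sets cohesion between sister chromatids in S phase, differed most of the 11, from 0.0310, 0.101 and 0.249 CPM to 0.161, 0.673 and 1.41 CPM (2.65, SE 0.491, adjusted p = 2.53e-05). Tyms, which makes thymidylate, was higher by 0.56 in vehicle quadriceps and not called in TA (0.13 after vehicle, 0.01 after ACVR2B/Fc). All 4 factors were higher, with E2f8 at 1.99, Foxm1 at 1.79, E2f7 at 0.83 and E2f1 at 0.73. E2f1 activates and E2f7 and E2f8 repress E2F targets. Foxm1 lay at 0.310, 0.427 and 0.624 CPM in WT and at 0.666, 1.22 and 3.50 CPM in R6/2 vehicle quadriceps.

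**Figure D2:**
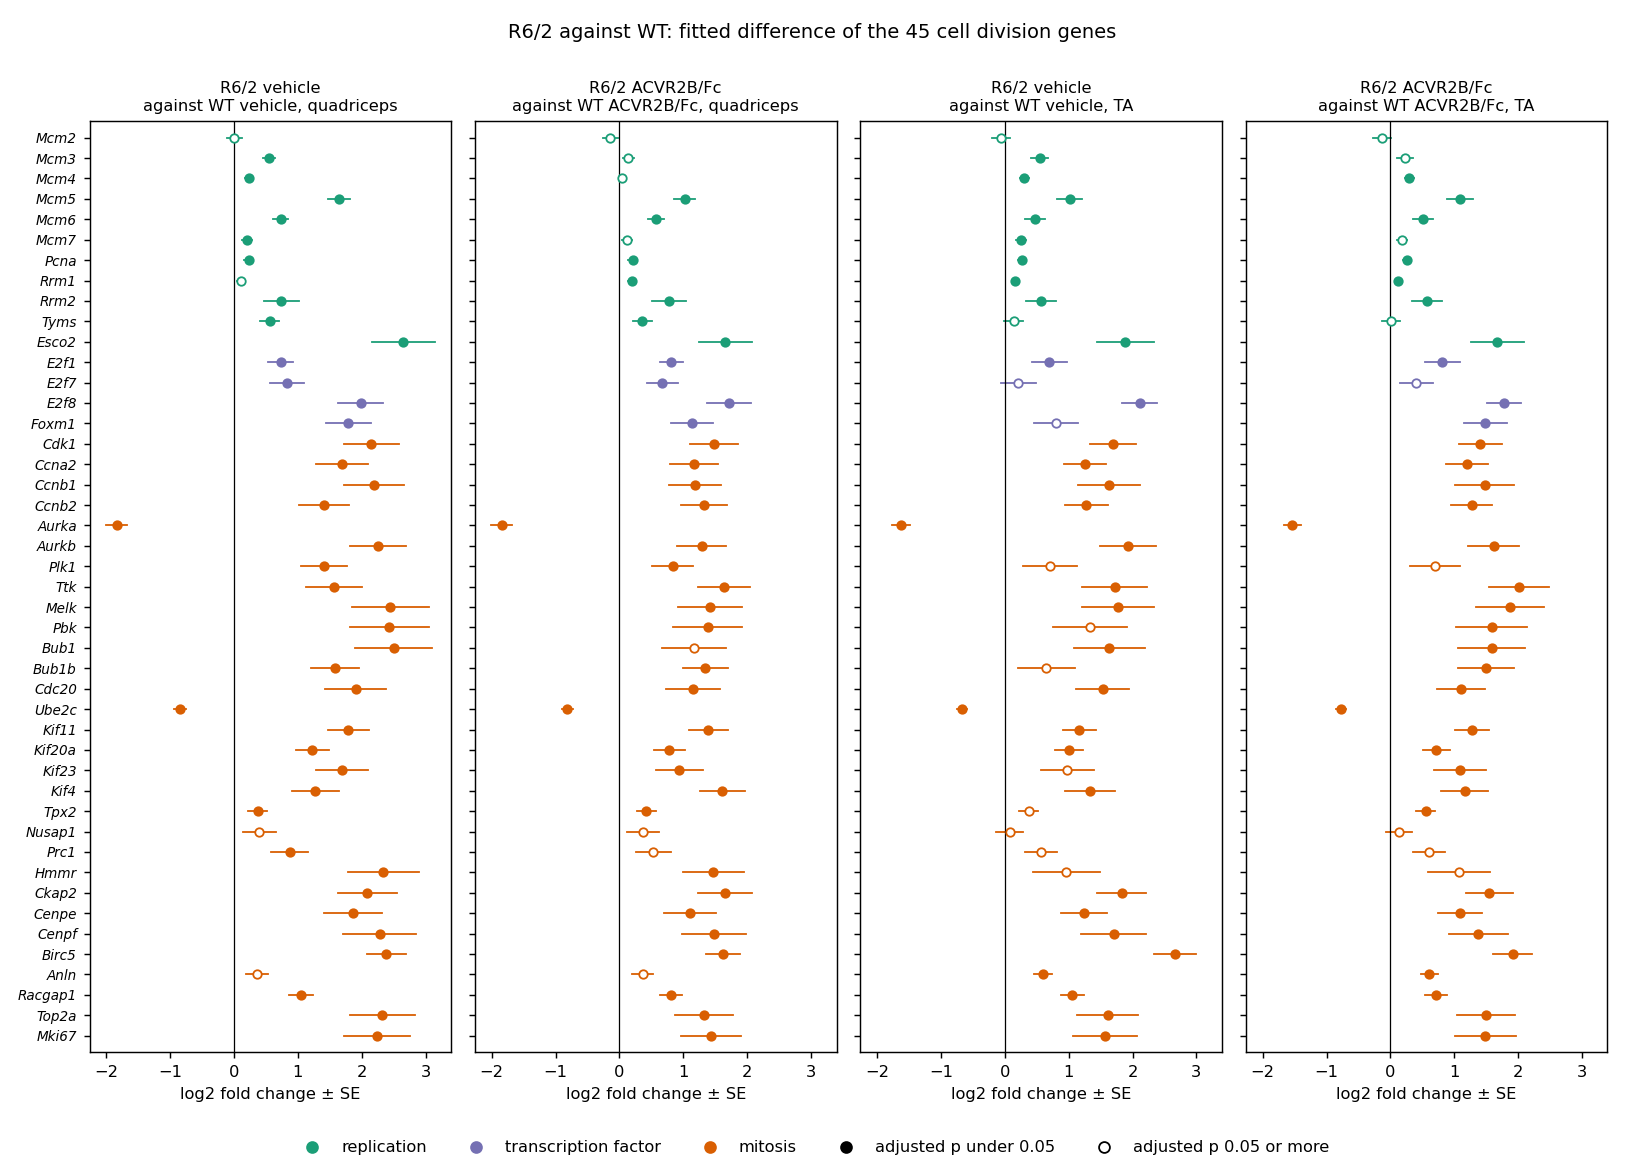
Fitted log2 fold change of each of the 45 genes, R6/2 against WT, in 4 panels (vehicle and ACVR2B/Fc mice, quadriceps and TA). Points are estimates, lines 1 SE, colours the 3 classes and filled points an adjusted p under 0.05; most mitosis genes lie between 1 and 2.5, most replication genes between 0 and 1, and Aurka and Ube2c lie below 0 in every panel.

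Aurka fell in R6/2 mice of both muscles and both treatments. In quadriceps it lay at 5.34, 7.66 and 11.6 CPM in WT vehicle and at 1.29, 2.33 and 3.63 CPM in R6/2 vehicle mice (log2 fold change -1.84, SE 0.168, edgeR adjusted p = 1.07e-11). In TA it lay at 4.18, 5.17 and 6.78 CPM and at 0.939, 1.78 and 2.06 CPM (-1.63, SE 0.139, adjusted p = 1.25e-12). Under ACVR2B/Fc the difference was -1.84 in quadriceps and -1.53 in TA. Aurka and Ube2c were the 2 members for which every R6/2 library lay below every WT library, in each of the 4 comparisons. This held for 5.67% of all genes in vehicle quadriceps, 3.91% in treated quadriceps, 5.33% in vehicle TA and 4.55% in treated TA. Aurka (chr2:172356190-172370535, minus strand) shares no exonic base with another annotated gene.

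Ube2c lay at 12.6, 13.4 and 19.7 CPM in WT vehicle and at 6.48, 8.14 and 9.58 CPM in R6/2 vehicle quadriceps (log2 fold change -0.85, SE 0.0912, edgeR adjusted p = 6.30e-10). Its exons (chr2:164769898-164778822, plus strand) overlap those of Tnnc2, the fast troponin C of the fibre, over 592 bases on the other strand. Tnnc2 lay at 6275, 6883 and 9271 CPM in WT vehicle and at 2645, 3249 and 3793 CPM in R6/2 vehicle quadriceps (-1.15, SE 0.0885, adjusted p = 1.30e-13). The strand used in counting is not given in the sources used here, so reads of the 2 genes cannot be told apart in the overlap. Within groups the log2 levels of Ube2c and Tnnc2 went together over the 79 libraries (r 0.746, a description), whereas Ube2c did not go with the other mitosis genes (r -0.05). The part of Tnnc2 reads in the counts of Ube2c was not tested. On log2(FPKM + 1), a scale on which the median of all genes was 0.27 in vehicle quadriceps and 0.21 in vehicle TA, the difference of Ube2c was -0.16 (limma adjusted p = 0.0553) in vehicle quadriceps and -0.07 (adjusted p = 0.362) in vehicle TA, and it was called in 1 of the 4 genotype comparisons. It lay below the median of all genes in both. That of Aurka was -1.12 and -0.93 on that scale.

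Exons of 13 of the 45 genes overlap those of another gene, and for 10 of them that gene passed the filter. Besides Ube2c the partners with a level above the member's included Cdc23 for Kif20a, Exosc9 for Ccna2, Pdzd11 for Kif4, Elovl1 for Cdc20, Rccd1 for Prc1 and Cops6 for Mcm7, so the counts of these genes are uncertain in the same way. In vehicle quadriceps Cdc23 differed by 0.08, Exosc9 by -0.15, Pdzd11 by 0.18, Elovl1 by 0.37, Rccd1 by -0.12 and Cops6 by -0.26 on the log2 scale. The members differed by 1.23 (Kif20a), 1.69 (Ccna2), 1.27 (Kif4), 1.90 (Cdc20), 0.87 (Prc1) and 0.21 (Mcm7).

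In vehicle TA 31 of the 45 genes were higher and 2 lower in R6/2 than in WT mice, with 21% of all genes higher and 18.6% lower. The median log2 fold change was 1.004 over the 45 genes and -0.01 over all genes. Mitosis genes were higher in 20 of 30 (median 1.27), replication genes in 9 of 11 (median 0.30) and factors in 2 of 4 (median 0.75). Birc5 lay at 0.0574, 0.161 and 0.422 CPM in WT and at 0.619, 1.02 and 2.01 CPM in R6/2 vehicle TA (2.66, SE 0.332, edgeR adjusted p = 1.39e-08). E2f8 lay at 0.0869, 0.318 and 0.605 CPM and at 0.736, 1.32 and 2.31 CPM (2.11, SE 0.273, adjusted p = 3.11e-08). Those 2 genes were the ones whose groups did not overlap upward, which held for 5.39% of all genes.

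Racgap1 came next by p among the genes that rose in vehicle TA, at 0.775, 1.36 and 2.06 CPM in WT and 1.78, 2.98 and 4.53 CPM in R6/2 mice (log2 fold change 1.05, SE 0.178, edgeR adjusted p = 5.14e-06). Mki67 lay at 0.656, 1.12 and 2.16 CPM in WT vehicle TA and at 0.477, 2.05 and 12.98 CPM in R6/2 vehicle TA (1.57, SE 0.503, adjusted p = 0.0111), so the lowest library of all was an R6/2 one. R6/2 vehicle TA replicate 4 held the highest level of several genes, and without it the count of called members fell from 33 to 29. The number of all genes called without it was not counted.

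Genotype was compared again in the mice given ACVR2B/Fc, which are other animals than those of the vehicle comparison. In quadriceps 35 genes were higher and 2 lower (20.9% and 17.9% of all genes), with a median log2 fold change of 1.10 against 0.05 over all genes. In TA 34 were higher and 2 lower (22.1% and 18% of all genes), with a median of 1.09 against 0.05. Without the libraries that hold another tissue the TA count fell to 17 higher and 2 lower (34.4% of all genes called). That left 6 of 10 libraries in treated R6/2 TA and 9 of 10 in treated WT TA. In quadriceps E2f1 was the single member with every treated R6/2 library above every treated WT library, at 0.351, 0.722 and 0.888 CPM in WT and 0.893, 1.23 and 1.498 CPM in R6/2 mice (3.66% of all genes). In TA there was none (4.46% of all genes). By class, mitosis genes were higher in 24 of 30 in both muscles and replication genes in 7 of 11.

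Mcm5 lay at 0.829, 1.10 and 1.95 CPM in treated WT and at 1.81, 2.62 and 3.75 CPM in treated R6/2 quadriceps (log2 fold change 1.02, SE 0.161, edgeR adjusted p = 2.06e-06), so that 1 or more libraries overlapped where vehicle mice had not. Birc5 lay at 0.344, 0.458 and 0.933 CPM and at 0.641, 1.54 and 2.77 CPM (1.62, SE 0.271, adjusted p = 5.81e-06). E2f8 lay at 0.0319, 0.237 and 0.433 CPM and at 0.385, 0.690 and 1.24 CPM (1.71, SE 0.340, adjusted p = 7.91e-05). The same 3 genes had the smallest p among those that rose in treated TA, with E2f8 at 1.78, Birc5 at 1.92 and Mcm5 at 1.09.

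Mki67 lay at 1.75, 3.99 and 9.62 CPM in treated WT and at 1.32, 9.22 and 28.3 CPM in treated R6/2 quadriceps (1.43, SE 0.464, edgeR adjusted p = 0.0123).

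Across the 4 genotype comparisons 25 genes were higher in each, as were 12.3% of all genes. These were 5 replication genes (Esco2, Mcm5, Mcm6, Pcna, Rrm2), 18 mitosis genes, and E2f1 and E2f8. Aurka and Ube2c were lower in each, as were 11.6% of all genes, and Mcm2 and Nusap1 were called in none, as were 39.2%. The other 16 genes were called in some comparisons and one way. The lane of sequencing and the part of the series, the latter inferred from the library numbers, were spread unevenly over the groups. With both as covariates the members called were 22 in vehicle quadriceps, 26 in treated quadriceps, 36 in vehicle TA and 25 in treated TA, with 32.7%, 34.2%, 36.3% and 37.4% of all genes called. Without the 15 libraries that hold another tissue, 6 of 10 treated R6/2 libraries were left in each muscle. The members called were then 40, 30, 31 and 19, with 40.4%, 33%, 34.3% and 34.4% of all genes called. Aurka and Ube2c were the 2 lower genes in each of these.

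The spread between R6/2 mice was itself wide. The 28 mitosis genes other than Aurka and Ube2c, left out after their values had been seen, summed to 16.8, 25.9 and 35.5 CPM in WT vehicle quadriceps and to 24.2, 55.8 and 128 CPM in R6/2 vehicle quadriceps. The standard deviation was 5.02 CPM over 9 WT libraries and 36.2 CPM over 10 R6/2 libraries. The highest R6/2 vehicle quadriceps libraries, replicates 9 and 5, were free of transcripts of another tissue by the limit above. In TA the sums were 14.9, 18.0 and 23.9 CPM in WT vehicle and 18.4, 29.5 and 79.6 CPM in R6/2 vehicle mice. The 11 replication genes summed to 102.4, 107.1 and 119 CPM in WT vehicle quadriceps and to 110, 128 and 142 CPM in R6/2 vehicle quadriceps. That sum rests mostly on Rrm1 and Pcna, with WT vehicle quadriceps medians of 41.5 and 21.0 CPM without TMM scaling. Its narrow range is thus not that of each gene, since Esco2 and Rrm2 spread several fold in R6/2 vehicle quadriceps, as given above.

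**Figure D3:**
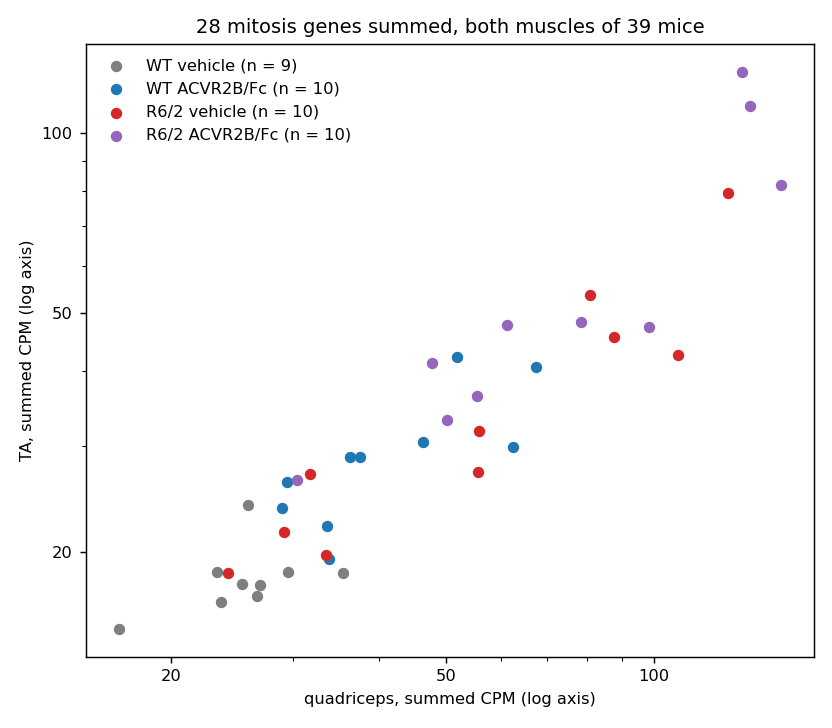
Summed level of 28 mitosis genes in the TA against the quadriceps of the same mouse, for the 39 mice with both libraries, as CPM on log axes. Each point is 1 mouse, coloured by group; mice with much in one muscle had much in the other, and the R6/2 mice reach 153 CPM in quadriceps and 127 CPM in TA.

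A mouse with high levels in one muscle had high levels in the other. With the group means removed, the log2 level in quadriceps and in TA of the same mouse had a median r of 0.698 over the 45 genes, against 0.254 over all genes tested (39 mice, given as a description). The median was 0.746 over the mitosis genes and 0.579 over the replication genes. Top2a was highest at 0.883, and Pcna, E2f1 and Ube2c were lowest at 0.134, 0.275 and 0.353. These points share the animal, and the members share libraries. Mice 30, 32, 82 and 90 held transcripts of another tissue in both muscles. The r values were not recomputed without them, and the part of such transcripts in the likeness was not tested.

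**Figure D4:**
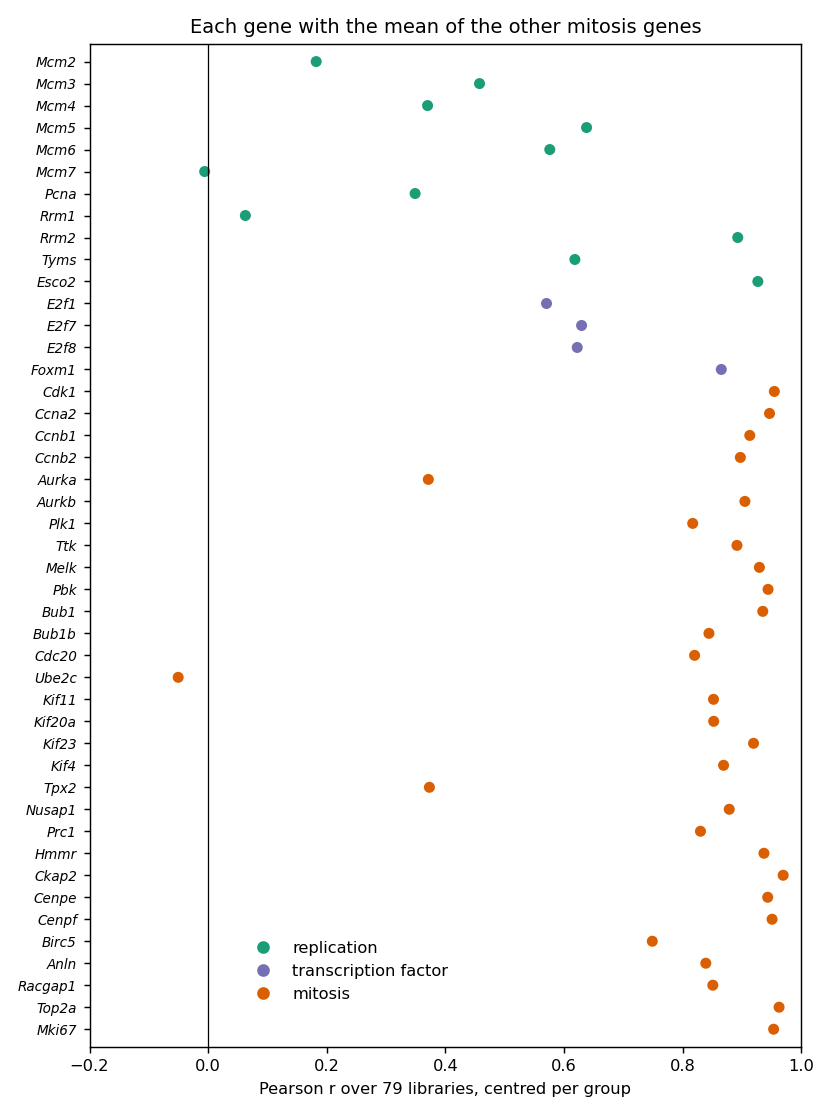
Pearson r of each of the 45 genes with the mean of the other mitosis genes, over 79 libraries, on log2 CPM centred per group. Points are genes coloured by class; most mitosis genes lie above 0.8, most replication genes below 0.65, and Ube2c lies at -0.05.

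Within the groups the mitosis genes rose and fell as a block from library to library. The r of a mitosis gene with the mean of the others had a median of 0.894 over the 30 genes, and Ckap2 was highest at 0.969. Aurka at 0.371 and Tpx2, the activator of Aurora A on the spindle, at 0.373 stood apart, as did Ube2c. The median over the 11 replication genes was 0.457, from -0.006 for Mcm7 and 0.063 for Rrm1 to 0.893 for Rrm2 and 0.927 for Esco2. Foxm1 was at 0.865. Each of these is a correlation over 79 libraries that share depth and scaling within a library, and is given as a description.

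The 20 non-members most like the mean of the 45 genes, of 13458 genes with a mean of 0.5 CPM or more, had r from 0.819 to 0.941, where the median over all was -0.03. They were led by Aspm, Ect2, Ckap2l, Ncapg and Kif15, which act at spindle poles, in cytokinesis, on spindles and on chromosomes. In the list of other mitosis genes 9 of the 20 were found. The others included Knl1 of the kinetochore, Pclaf, which binds PCNA, and the imprinted gene Mest.

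After ACVR2B/Fc 2 of the 45 genes were called by edgeR, both higher, in each of the 4 comparisons of treatment. In WT quadriceps 2 of the 45 genes were called higher and 0 lower, with 0.792% of all genes higher and 0.462% lower, and 25 had an unadjusted p under 0.05, as had 12.9% of all genes. With mouse 93 kept in 6 had (15% of all genes), on log2(FPKM + 1) 4 had (10%), and on log2(FPKM + 0.1) 15 had. The median log2 fold change of the 45 was 0.61, against 0.005 over all genes. Birc5 was called, at 0.344, 0.458 and 0.933 CPM after treatment against 0.0621, 0.239 and 0.366 CPM after vehicle (1.23, SE 0.313, edgeR adjusted p = 0.0338). So was E2f7, at 0.372, 0.870 and 1.86 CPM against 0.142, 0.518 and 0.779 CPM (1.01, SE 0.270, adjusted p = 0.0480). The Mki67 levels of treated WT quadriceps given above lay higher than those of vehicle mice, but the difference of 1.45 did not pass (SE 0.513, adjusted p = 0.167). Leaving out single libraries gave from 0 calls (without WT ACVR2B/Fc replicate 1) to 3, and with lane and part as covariates, or on either FPKM scale, 0 genes were called. Calls over all genes were not counted when single libraries were left out.

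**Figure D5:**
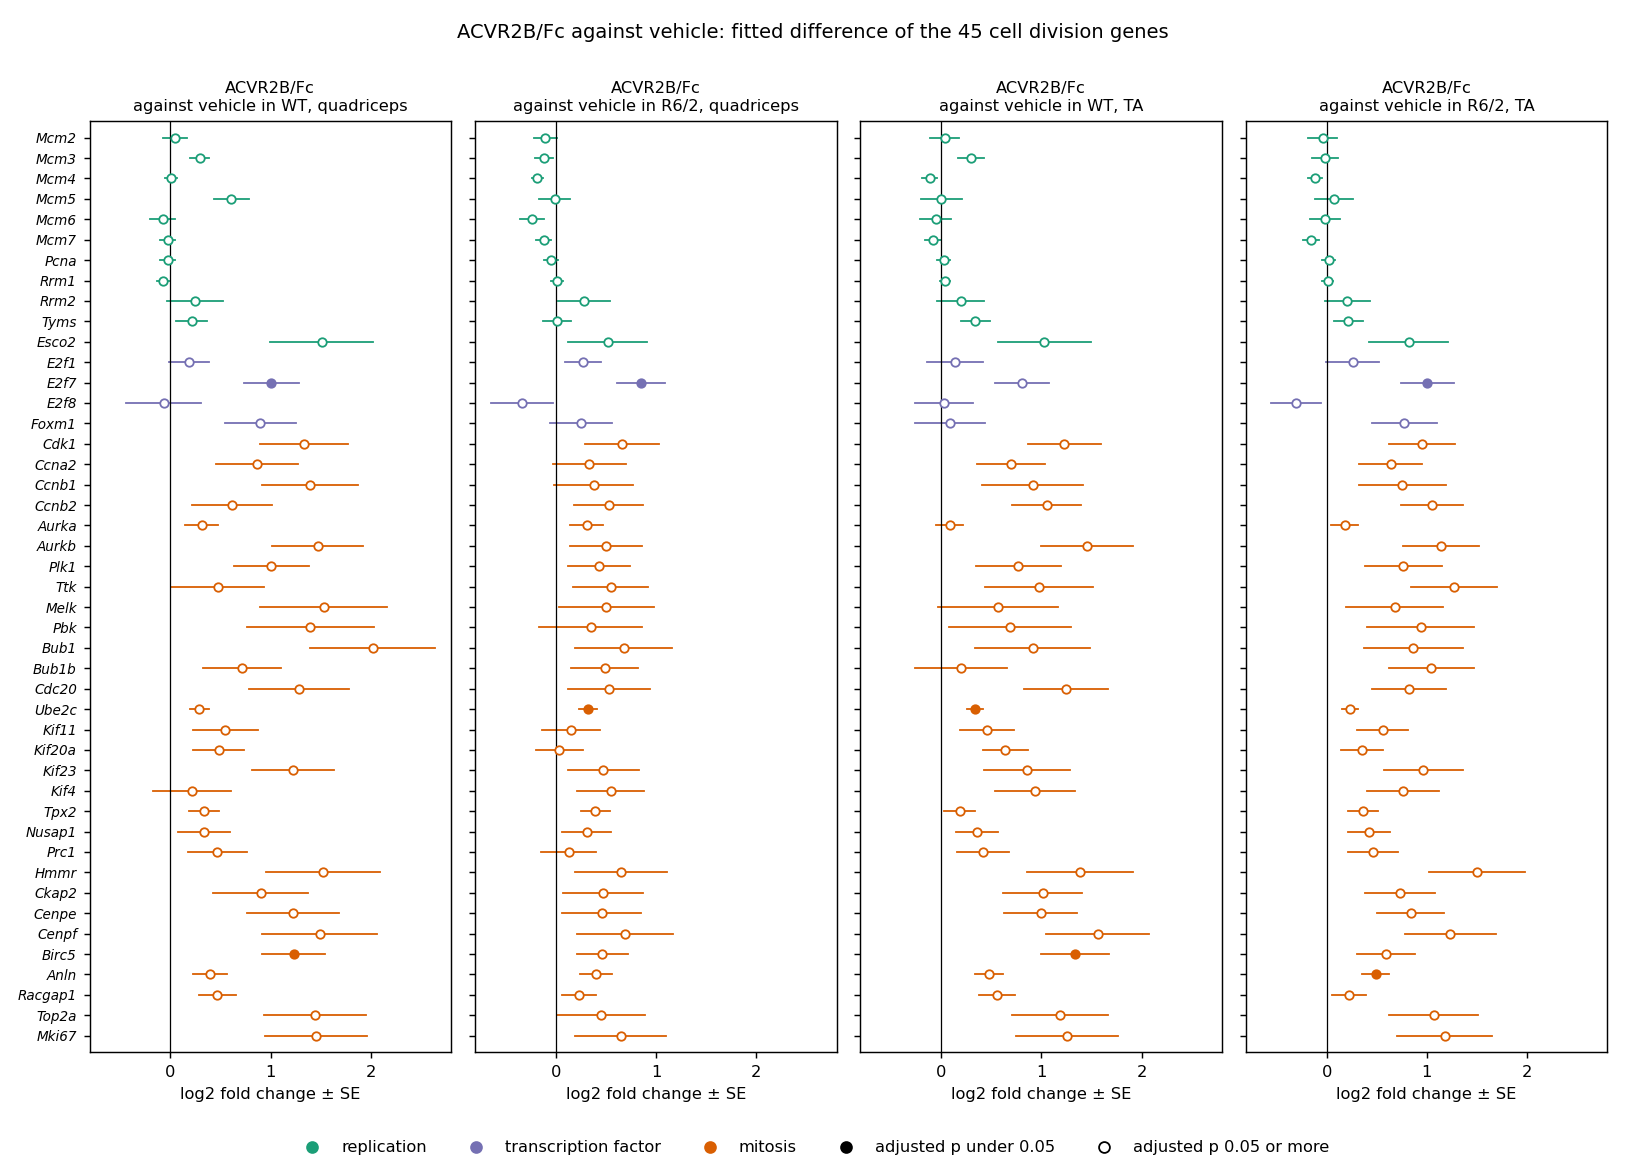
Fitted log2 fold change of each of the 45 genes, ACVR2B/Fc against vehicle, in 4 panels (WT and R6/2, quadriceps and TA). Points are estimates, lines 1 SE, colours the 3 classes and filled points an adjusted p under 0.05; all 30 mitosis genes lie above 0 in every panel, 2 genes per panel are filled, and most replication genes lie near 0.

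In WT TA 2 genes were called higher and 0 lower (1.12% and 1.29% of all genes). An unadjusted p was under 0.05 for 21 (17% of all genes), or for 2 on log2(FPKM + 1) (18.9%) and 8 on log2(FPKM + 0.1). In WT vehicle TA the median FPKM was under 1 for 27 of the 30 mitosis genes. The median log2 fold change was 0.57, against -0.01 over all genes. The called genes were Birc5, at 0.120, 0.380 and 1.17 CPM after treatment (1.33, SE 0.339, edgeR adjusted p = 0.0238), and Ube2c, at 12.9, 14.6 and 19.3 CPM against 9.60, 11.9 and 14.5 CPM (0.34, SE 0.0772, adjusted p = 0.0120). Tnnc2, whose exons overlap those of Ube2c, differed by 0.29 there (SE 0.0791, adjusted p = 0.0417). With lane and part as covariates 1 gene was called, and on both FPKM scales 0 were. The 28 mitosis genes summed to 19.5, 28.8 and 42.3 CPM in treated WT TA, where vehicle mice had at most 23.9 CPM.

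In R6/2 quadriceps 2 genes were higher and 0 lower (2.93% and 1.63% of all genes), with 5 at an unadjusted p under 0.05 beside 16.5% of all genes (16 with lane and part as covariates, beside 12.2%) and a median log2 fold change of 0.38, against -0.003 over all genes. E2f7 lay at 0.805, 1.57 and 2.06 CPM after treatment against 0.481, 0.724 and 1.35 CPM (0.85, SE 0.243, edgeR adjusted p = 0.0314). Ube2c lay at 7.68, 9.90 and 13.4 CPM (0.32, SE 0.0887, adjusted p = 0.0249), beside 0.45 for Tnnc2 (SE 0.0858, adjusted p = 0.00102). Without the libraries that hold another tissue, neither was called. That left 6 of 10 treated libraries, and 238 of all genes were called, against 899 in the main test. On log2(FPKM + 1) 2 genes were called higher and 3 lower, and on log2(FPKM + 0.1) 1 higher and 2 lower. Of all genes 2586 and 2055 were called on these scales, 11.2% and 11.5% of them higher.

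In R6/2 TA 2 genes were higher and 0 lower (1.17% and 1.02% of all genes), with 23 at an unadjusted p under 0.05 (15.5% of all genes) and a median log2 fold change of 0.64, against -0.002 over all genes. Without the libraries that hold another tissue 5 had an unadjusted p under 0.05 (18.2% of all genes), and with lane and part as covariates 12 did (15.1%). The former left 6 of 10 treated and 9 of 10 vehicle libraries. E2f7 lay at 0.622, 1.21 and 2.04 CPM against 0.299, 0.553 and 1.22 CPM (1.005, SE 0.265, edgeR adjusted p = 0.0318), and Anln at 3.74, 4.74 and 7.80 CPM against 2.53, 3.33 and 5.37 CPM (0.49, SE 0.135, adjusted p = 0.0447). The highest treated library, replicate 1, also held 40.6 CPM of hair follicle genes, and without it 0 genes were called. Without R6/2 vehicle TA replicate 4, 12 were. How many of all genes were called in these refits was not counted, so the shifts cannot be set beside a share. E2f7 was thus called in 3 of the 4 treatment comparisons and had a log2 fold change of 0.81 in WT TA (SE 0.274, adjusted p = 0.105).

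All 30 mitosis genes had a positive fold change in each of the 4 treatment comparisons, while the median of the replication genes lay at 0.04 (WT quadriceps), -0.05 (R6/2 quadriceps), 0.04 (WT TA) and 0.01 (R6/2 TA). The 30 signs are not separate observations, because these genes moved together within groups (median r 0.894). Nor are the 2 muscles, which came from the same mice (median r 0.746 for mitosis genes). The exons of Ube2c, 1 of the 30, overlap those of Tnnc2. The treatment and genotype comparisons share libraries, and no relation between them was computed. In quadriceps the 28 mitosis genes summed to 28.9, 36.9 and 67.5 CPM in treated WT and to 30.4, 69.9 and 153 CPM in treated R6/2 mice, and in TA of treated R6/2 mice to 26.4, 47.6 and 127 CPM. Without the libraries that hold another tissue or marrow, the R6/2 quadriceps medians were 80.7 CPM (vehicle, 7 libraries) and 74.3 CPM (treated, 6 libraries). With all libraries they were 55.8 and 69.9 CPM, so their order turned. In the other pairs the treated median stayed higher. It was 36.9 against 26.2 CPM in WT quadriceps, 28.8 against 18.4 CPM in WT TA and 44.4 against 31.8 CPM in R6/2 TA.

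The response did not differ detectably between genotypes. By edgeR 0 of the 45 genes passed for the difference of the responses in quadriceps (0.0102% of all genes passed with a larger response in R6/2 mice) and 0 in TA (0.00508% with a smaller one), where an unadjusted p was under 0.05 for 3 and 0 genes (7.08% and 8.44% of all genes), and DESeq2 gave 0 in both muscles. For Mki67 the difference was -0.81 (SE 0.676) in quadriceps and -0.08 (SE 0.676) in TA, so differences of 1 or more on the log2 scale lie within the error.

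The muscles were compared within mice, with each mouse as a block. In WT vehicle mice 0 of the 45 genes were higher and 6 lower in TA than in quadriceps, with 9.25% and 9.15% of all genes. The median log2 fold change was -0.15 over the 45 genes and 0.00 over all. Tpx2 lay at 3.57, 6.13 and 7.23 CPM in quadriceps and at 1.95, 3.32 and 4.88 CPM in TA (-0.64, SE 0.110, edgeR adjusted p = 1.97e-05). The others were Aurka at -0.48, Anln at -0.45, Racgap1 at -0.40, Mcm3 at -0.27 and Ttk at -1.16 on the log2 scale. In R6/2 vehicle mice 1 gene (E2f8, 0.75) was higher and 25 were lower in TA, with 10.1% and 13.1% of all genes and a median of -0.49. Without the libraries that hold another tissue E2f8 was no longer called and 27 genes were lower. Hmmr, a spindle protein that binds hyaluronan, ran from 0.182 over 0.899 to 2.70 CPM in quadriceps and from 0 over 0.173 to 1.05 CPM in TA of R6/2 vehicle mice (-1.58, SE 0.246, edgeR adjusted p = 3.40e-06). Top2a ran from 0.742 over 4.36 to 14.1 CPM and from 0.408 over 1.55 to 8.38 CPM (-1.03, SE 0.163, adjusted p = 4.26e-06), and Tpx2 from 4.85 over 7.27 to 11.3 CPM and from 3.31 over 4.39 to 5.50 CPM (-0.61, SE 0.0972, adjusted p = 4.46e-06). Both groups overlapped in all 3 genes. Levels of the 2 muscles were scaled separately, and the test was run on both together. Cell type markers differed in the same contrast. In R6/2 vehicle mice all 9 macrophage genes (median -1.28) and all 6 fibro-adipogenic genes (median -0.78) were lower in TA, and 0 of 6 endothelial genes were called. In WT vehicle mice 7 of 9 macrophage genes and 4 of 6 fibro-adipogenic genes were lower and all 6 endothelial genes higher. The macrophage genes summed to 77.4, 95.2 and 111.8 CPM in quadriceps and to 28.3, 39.4 and 65.3 CPM in TA of R6/2 vehicle mice. The part of these cells in the lower levels of the 45 genes in TA was not tested.

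The difference between the genotypes in the TA against quadriceps contrast was called for Mcm5 (-0.64, SE 0.181, edgeR adjusted p = 0.0497), with 0.934% of all genes called upward and 1.3% downward. Mcm5 lay at 0.553, 0.779 and 1.10 CPM in quadriceps and 0.637, 0.991 and 1.11 CPM in TA of WT vehicle mice, and at 1.85, 2.25 and 3.35 CPM and 1.11, 1.97 and 2.89 CPM in R6/2 vehicle mice. The call did not hold with RLE factors or without libraries of another tissue.

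Other genes of the cell cycle, from lists that were also written with earlier results known, gave like counts for mitosis and mixed ones elsewhere. In vehicle quadriceps 34 of 38 other mitosis genes were higher in R6/2 mice and 0 lower (median 1.43), beside 22.5% higher and 18.6% lower of all genes. Of smallest p were Spc25 of the kinetochore at 1.99, the cell division gene Cdca3 at 1.41 and the phosphatase Cdc25b at 0.87. In vehicle TA 26 of 38 were higher and 0 lower (21% and 18.6% of all genes), and in treated mice 27 in each muscle, with 0 lower (20.9% of all genes higher in quadriceps and 22.1% in TA). Of 32 other replication genes 13 were higher and 4 lower in vehicle quadriceps (median 0.19), beside the same 22.5% and 18.6%. Cdc45, which drives the replicative helicase, was higher at 1.18 and the DNA ligase Lig1 at 0.95, while thymidine kinase Tk1 was lower at -0.62 and the polymerase alpha subunit Pola2 at -0.35.

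Upstream in the cycle, 6 of 9 G1 cyclins and kinases were higher and 1 lower in R6/2 vehicle quadriceps (22.5% and 18.6% of all genes). Ccne1, cyclin E1, was higher at 2.01, Ccnd3, cyclin D3, at 0.72 and Cdk2 at 0.67, whereas Ccne2 was lower at -0.60. The same 4 genes were called the same way in the other 3 genotype comparisons. Among 7 Cdk inhibitors Cdkn1c (p57) was higher in all 4, at 1.14, 1.60, 0.78 and 1.06. Of 13 Rb family and DREAM subunits Rb1 was higher at 0.63 and E2f4, the E2F of resting cells, lower at -0.40 in vehicle quadriceps. After ACVR2B/Fc, Ccnd1, cyclin D1, was higher in WT quadriceps at 1.08, in WT TA at 1.18 and in R6/2 TA at 1.06. Of the 38 other mitosis genes 2 were called in WT quadriceps (0.792% of all genes higher, 0.462% lower) and 8 in WT TA (1.12% and 1.29%), with Sgo2a, Cep55 and Smc4 of smallest p. In R6/2 mice 0 were, and 4 (quadriceps) and 19 (TA) had an unadjusted p under 0.05, beside 16.5% and 15.5% of all genes.

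Markers of the cells that could divide in muscle were read beside these counts. Of 7 satellite cell and myoblast genes 5 were higher and 0 lower in R6/2 mice in each of the 4 genotype comparisons, where 20.9 to 22.5% of all genes were higher. Their sum lay at 32.2, 38.0 and 41.5 CPM in WT vehicle and at 39.6, 52.8 and 61.03 CPM in R6/2 vehicle quadriceps, and at 28.5, 35.4 and 46.9 CPM and 39.5, 48.8 and 61.8 CPM in TA. After ACVR2B/Fc 0 of the 7 were called in either muscle or genotype. In WT TA 3 of them had an unadjusted p under 0.05, namely Pax7 at -0.36, Myf5 at -0.37 and Calcr at -0.58 on the log2 scale, and in WT quadriceps 1, R6/2 quadriceps 1 and R6/2 TA 0 had. The shares of all genes were 17%, 12.9%, 16.5% and 15.5% in that order. Of 9 macrophage genes 2 were higher in R6/2 vehicle quadriceps, which is near the 22.5% of all genes, and 0 in R6/2 vehicle TA. Their sum lay at 60.9, 83.4 and 103 CPM in WT and 77.4, 95.2 and 111.8 CPM in R6/2 quadriceps. After ACVR2B/Fc 1 macrophage gene was called higher, in R6/2 TA, and 5 (WT quadriceps), 6 (R6/2 quadriceps), 0 (WT TA) and 7 (R6/2 TA) of the 9 had an unadjusted p under 0.05. Of all genes 12.9%, 16.5%, 17% and 15.5% had.

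Of 6 endothelial genes 0 were called between genotypes or treatments in quadriceps and 2 were lower in R6/2 vehicle TA, with sums in quadriceps of 214, 263 and 314 CPM in WT vehicle and 233, 266 and 356 CPM in R6/2 vehicle mice. Of 6 fibro-adipogenic genes 2 were higher and 1 lower in R6/2 vehicle quadriceps, and of 8 marrow granulocyte genes 4 were higher, beside 22.5% higher and 18.6% lower of all genes. The marrow granulocyte genes summed to at most 8.12 CPM, and without the 2 libraries that hold them 40 of the 45 genes were called. So were 7689 of all 19702 genes. In vehicle TA the fibro-adipogenic genes Dcn (-0.45) and Pi16 (-0.93) were lower and Col3a1 (0.65) higher. Of 7 erythroid genes 1 was higher and 2 lower in R6/2 vehicle quadriceps and 3 were lower in R6/2 vehicle TA, namely Alas2 (-1.23), Hbb-bt (-1.22) and Hba-a1 (-1.29). Beside these counts in vehicle TA, 21% of all genes were higher and 18.6% lower. Of 7 lymphocyte genes 1 was higher in R6/2 vehicle quadriceps, and they summed to at most 1.47 CPM in any quadriceps library used. All 8 fibre genes were lower in R6/2 mice in each genotype comparison, with a sum of 144100, 157400 and 209600 CPM in WT and 43910, 48660 and 65540 CPM in R6/2 vehicle quadriceps. The share of all genes that was lower ran from 17.9 to 18.6%. The part of each of these cell types, and of the fall in fibre transcripts, in the levels of the 45 genes was not tested.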

How the data were processed

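Total RNA of each muscle was sequenced at 1 library per mouse and muscle, and replicates are separate mice. The authors used Omicsoft's OSA aligner against mouse B38 with Ensembl R75 gene models, after base calling with CASAVA 1.8.2 (from the submitters' processing notes), and deposited estimated counts and FPKM per gene. The deposited estimated counts were not whole in 29.4% of values above 0 and were rounded here to the nearest whole number. The deposited FPKM values were used for levels per length and, as log2(FPKM + 1) or log2(FPKM + 0.1) with limma, as alternatives. The kit's strand setting is not given in the sources used here. Symbols came from GENCODE vM21 (37607 genes).

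The main test was edgeR 4.0.16's quasi-likelihood test on TMM-scaled counts (R 4.3.3), with the 4 groups of a muscle in one fit. Genes needed 2 counts in 10 of 79 libraries, which left 19702, and calls used a Benjamini-Hochberg adjusted p under 0.05 over all of them. Muscles were compared in 1 fit with the mouse as a block (39 mice). SE values were derived from the fold change and the F statistic. Median r values used log2(CPM + 0.5). The edgeR fit within a muscle was run on simulated counts, in which only genes above a minimum expected count were changed. That run does not cover the rarest members or the fit with the mouse as a block. Other tools were limma 3.58.1, DESeq2 1.42.0 and Python 3.11.15.

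The members and all gene lists were chosen with earlier results of these data known. Values by group were given for Mki67, Top2a, Cdk1, Ccnb1, Mcm2, Mcm6, Pcna, Rrm2, Esco2 and Ckap2 and for the 3 members of smallest p on each side of a comparison, and other genes were named when among the 3 of smallest p that passed in their list. Alternatives were another scaling, tool, filter, rounding, unit, covariates or set of libraries. The quadriceps library of mouse 93 was left out.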

Additional observations from a re-analysis of the deposited data

Results flagged for a closer look

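Dixon's criterion was applied to 12 genes and the sums of 2 classes in each of the 8 groups, and the highest library stood apart 8 times, where chance alone gives about 1 in 20 of the sets tested. R6/2 vehicle TA replicate 4 accounted for 4 of them, with Mki67 at 12.98 CPM (next 7.01), Top2a at 8.38 CPM (next 4.49), Rrm2 at 2.76 CPM (next 1.81) and Ckap2 at 2.56 CPM (next 1.42). Mcm6 stood at 6.01 CPM in WT vehicle quadriceps replicate 6 (next 4.49) and at 9.38 CPM in R6/2 ACVR2B/Fc TA replicate 1 (next 5.73), both of which held transcripts of another tissue. Rrm2 stood at 2.48 CPM in WT ACVR2B/Fc quadriceps replicate 1 (next 1.66) and Esco2 at 0.249 CPM in WT vehicle quadriceps replicate 3 (next 0.127).

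The TA against quadriceps contrast of Mcm5 differed between R6/2 and WT vehicle mice by -0.64 on the log2 scale (edgeR adjusted p = 0.0497, SE 0.181).

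The quadriceps library of mouse 93 (WT vehicle, replicate 4), which was left out of the main tests, held more of 41 of the 45 genes than each of the 9 other WT vehicle quadriceps libraries, in CPM without TMM scaling. Mki67 stood at 13.5 CPM (highest of the others 2.72), Top2a at 10.5 (1.92), Cdk1 at 1.31 (0.466), Ccnb1 at 1.76 (0.441), Ckap2 at 1.20 (0.518) and Esco2 at 0.934 (0.207). Mcm2 stood at 6.89 CPM (6.46), Mcm6 at 11.9 (5.30), Pcna at 33.1 (23.9) and Rrm2 at 2.67 (1.40). The lymphocyte list summed to 133 CPM in that library, against 0.154 to 0.612 CPM in the others. Other lists outside the range of those 9 libraries were macrophages at 108.3 CPM (highest 89.5), fibro-adipogenic cells at 1359 CPM (1258), marrow granulocytes at 2.94 CPM (0.824) and liver at 3.11 CPM (0.915), and below it the fibres at 115300 CPM (lowest 116100) and satellite cells at 25.9 CPM (26.3). The part of these cells in its levels was not tested. With the library kept in, 39 members were called between genotypes in vehicle quadriceps and 38 in treated quadriceps, 2 for ACVR2B/Fc in each genotype and 0 for the difference of the responses. Of all genes 7766, 7409, 528 (WT), 732 (R6/2) and 12 were called.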

How the results depend on the processing

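Members called between genotypes stayed within 1.5 times the main count under every alternative with 2 exceptions, 22 in vehicle quadriceps with covariates for the lane and the part of the series and 19 in treated TA without libraries of another tissue. On the FPKM scales 11874 to 13530 of all 19702 genes were called between genotypes, against 7636 to 8083 in the main test. Leaving out single libraries gave 39 to 42 called members in vehicle quadriceps, 29 to 39 in treated quadriceps, 29 to 38 in vehicle TA and 29 to 38 in treated TA. For ACVR2B/Fc it gave 0 to 3 (WT quadriceps), 0 to 3 (R6/2 quadriceps), 1 to 4 (WT TA) and 0 to 12 (R6/2 TA), and for the differences of responses 0 to 0. The calls over all genes were not counted in these refits, so the ranges stand without a share of all genes. Of the ACVR2B/Fc counts, each 2 in the main test, WT quadriceps gave 6 with DESeq2, 1 with no filter, 0 with lane and part, 1 without marrow libraries and 0 on both FPKM scales. Of all genes 435, 199, 88, 230, 136 and 177 were called in that order, against 247 in the main test. R6/2 quadriceps gave 5 on log2(FPKM + 1) (2 higher, 3 lower), 0 without libraries of another tissue and 1 without marrow libraries. Of all genes 2586, 238 and 697 were called there, against 899. WT TA gave 7 with DESeq2, 1 with lane and part and 0 on both FPKM scales, and R6/2 TA gave 6 with DESeq2, 1 with no filter, 1 with all 79 libraries in one fit, 0 with lane and part and 0 without libraries of another tissue. Of all genes 741, 172, 474 and 789 were called in WT TA, against 475. In R6/2 TA 741, 347, 642, 305 and 434 were, against 430. Between muscles, no mouse block gave 2 (WT), 2 (R6/2) and 0 (their difference), and the difference gave 0 with RLE factors, 3 with a filter of 1 CPM, 0 without libraries of another tissue and 4 with DESeq2. Of all genes 2382, 2889 and 20 were called with no mouse block, against 3625, 4582 and 441 in the main test. For the difference 456, 663, 89 and 975 of all genes were called under the other 4 alternatives in that order. The causes were not tested.

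Same-numbered libraries did not deviate together (mean r -0.0048 over 57 pairs in quadriceps and -0.0094 over 60 pairs in TA, and 3 of 39 and 2 of 40 libraries correlated best with their own number), so the numbers pair nothing. A replicate block gave 41, 26, 30 and 34 called members between genotypes and, for ACVR2B/Fc, 1 each in the WT muscles and 1 for R6/2 TA. Of all 19702 genes it called 8092, 7575, 7699 and 7745 between genotypes. For ACVR2B/Fc it called 241 (WT quadriceps), 392 (WT TA) and 353 (R6/2 TA).

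Values of single genes were recomputed for 192 pairs of a gene and a comparison, namely the called members and, between genotypes, also the 10 genes fixed by name. Of these values under the alternatives 1949 kept direction and call, 187 lost the call, 2 gained it and 10 turned direction. The latter were values of Mcm2, which was not called in the main test. In vehicle quadriceps it was at -0.024 with RLE factors, -0.0235 with DESeq2 and -0.13 with lane and part. On log2(FPKM + 1) and log2(FPKM + 0.1) it was at 0.24 and 0.35 in treated quadriceps, 0.30 and 0.47 in vehicle TA and 0.28 and 0.45 in treated TA, and in vehicle TA at 0.034 with lane and part. The FPKM scales moved the median of all genes by 0.27 and 0.49 in vehicle quadriceps, and over the genotype comparisons 94 to 95.6% of called genes were higher there, against 53 to 55% in the main test. At these depths the rarest members rest on few reads, such as Melk.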
